A study of Mus musculus with 14 samples.

Results

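The genes described here are 8 inflammatory mRNAs reported in other work to bind ELAVL1 (HuR) and to carry AU-rich sequence: Tnf, Il1b, Il10, Tgfb1, Vegfa, Nos2, Ptgs2 and Plau. They were taken by name from the 21444 Ensembl genes of the mRNA tables, where each symbol matched 1 identifier. In the AGO2 tables they were found by gene name, as 23 of 17420 3′ UTR binding groups in knockout and 26 of 22109 in wild type. The samples were mouse (C57BL/6) bone marrow derived macrophages, grown from femur and tibia marrow in medium holding 20% of L929 cell medium, which supplies the growth factor CSF1. The labels give 6 days of culture and the design text gives 7. Knockout (KO) cells carried the floxed Elavl1 allele with LysM-Cre (ELAVL1f/f, LysM-Cre), a recombinase under the lysozyme promoter of myeloid cells. Wild type (WT) cells carried the same floxed allele without Cre (ELAVL1f/f). The mRNA set held 4 KO and 4 WT libraries, each genotype numbered 1 to 4. Small RNA was sequenced for KO 3, KO 4, WT 1 and WT 2, and AGO2 PAR-CLIP was done once in KO and once in WT. No stimulus is named for any sample.

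ELAVL1 is an RNA-binding protein that holds U-rich and AU-rich stretches in 3′ UTRs and is known for stabilising many short-lived inflammatory mRNAs. Proteins such as tristetraprolin bind similar stretches and promote decay. AGO2 carries miRNAs to mRNAs by pairing of the miRNA seed, its bases 2 to 8, and such sites may lie beside ELAVL1 sites. No ELAVL1 binding was measured here, so the label of the gene group was checked only through the sequence of AGO2 groups.

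Total counts ran from 8160789 to 25030262 per KO mRNA library and from 11192104 to 24681273 per WT library. Elavl1 itself had 76.8, 64.1, 64.9 and 72.4 counts per 1000000 (CPM) in KO 1 to 4 and 65.9, 61.2, 62.6 and 64.2 CPM in WT 1 to 4, so its whole-gene count was not lower in KO. Which exons are floxed is not given in the sources used here, and a whole-gene count takes in the exons that remain. The deletion of Elavl1 itself therefore rests on the labels alone. Lyz2, the gene that carries the Cre insertion, had 5070 ± 1000 CPM in KO and 12400 ± 2560 CPM in WT. It passed in edgeR with the replicate number as a block (adjusted p = 0.000472) and not without it, and an effect of the insertion cannot be told apart from that of ELAVL1 loss. All 12 macrophage markers were measured, with a summed level of 16200 to 19900 CPM in KO and 23500 to 28000 CPM in WT. Lyz2 is part of that sum, at 3720 to 6140 CPM in KO and 9950 to 15500 CPM in WT. In edgeR without the block, 4 of the 12 had a log2 fold change below 0 and 8 above 0. The lower sum in KO therefore does not stand for the markers as a set. Summed markers of other cells were 22.6 to 55.6 CPM in KO and 10.2 to 32.0 CPM in WT for 10 neutrophil genes, and 2.69 to 88.4 CPM in KO and 4.57 to 48.8 CPM in WT for 10 stromal genes. Ranges were 27.6 to 64.7 CPM in KO and 20.2 to 41.2 CPM in WT for 6 endothelial genes, and 3.84 to 14.3 CPM in KO and 1.59 to 10.5 CPM in WT for 6 mast cell or basophil genes. For 8 T and B cell genes they were 31.2 to 109 CPM in KO and 32.0 to 103 CPM in WT, and for the 5 measured of 6 dendritic genes 3.69 to 45.8 CPM in KO and 2.56 to 146 CPM in WT. None of these markers was at 0 in every library, and their part in the values below was not tested. In bulk samples fewer cells of a type and less RNA per cell cannot be told apart.

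Of the 8 mRNAs, Nos2, Ptgs2 and Vegfa were lower in KO within all 4 replicate numbers, Plau was lower within 3, and Tgfb1 was higher within all 4. Tnf, Il10 and Il1b went both ways. The differences were close to 2-fold for Nos2 and Ptgs2 and smaller for the others. None of the 8 passed an adjusted p of 0.05 in edgeR's quasi-likelihood test, with or without a replicate block, a term that compares KO and WT libraries of the same number. Of all 14019 genes tested, 8.26% were lower in KO within all 4 numbers and 9.52% were higher within all 4.

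**Figure D1:**
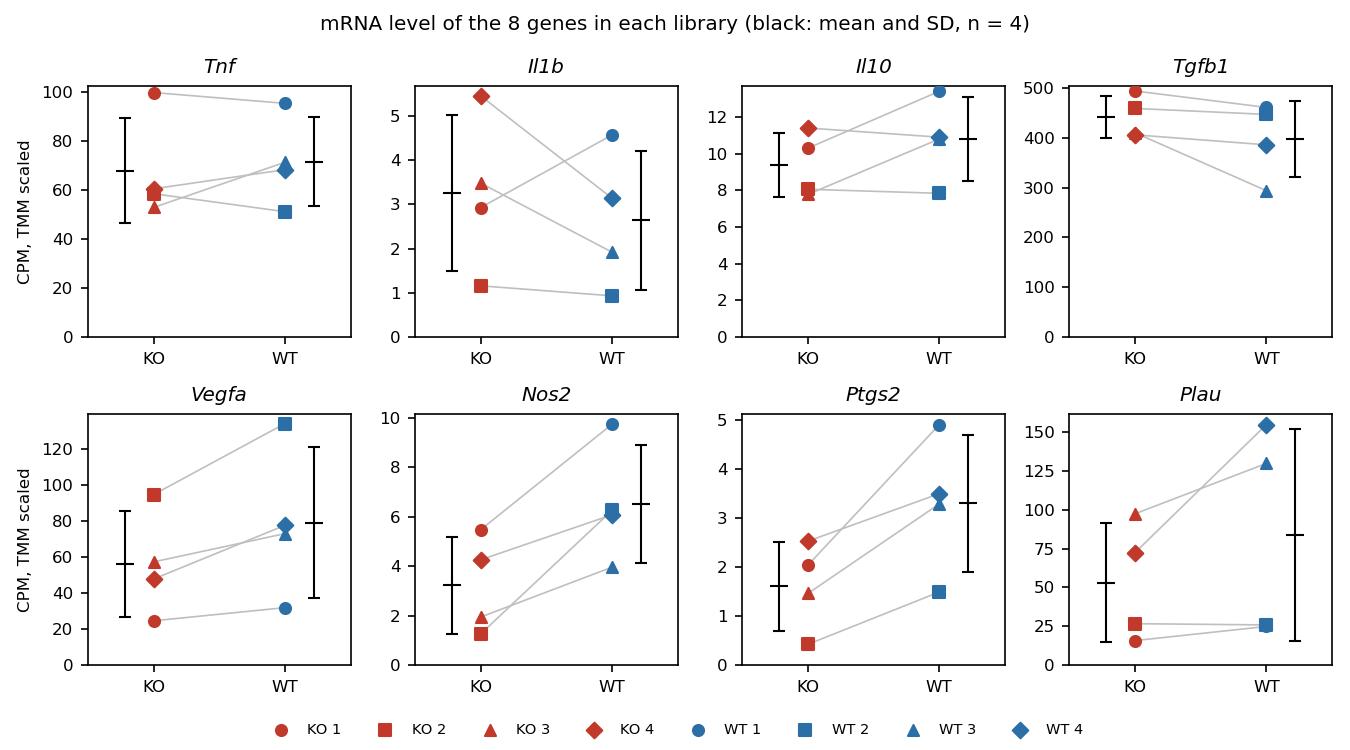
TMM-scaled CPM (y axis, from 0) of each gene in the 4 KO libraries (left) and the 4 WT libraries (right), with grey lines joining equal replicate numbers and black bars giving mean and SD (n = 4). For Nos2, Ptgs2 and Vegfa all 4 lines are lower at KO, while the KO and WT points overlap for all 8 genes.

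Tgfb1 was by far the most abundant of the 8 per transcript length, and Ptgs2 the least. In the deposited RPKM values, which are scaled for transcript length and depth, Tgfb1 averaged 237 ± 16.7 in KO and 213 ± 38.5 in WT (SD, n = 4 each). Tnf followed with 35.8 ± 10.6 RPKM in KO and 38.0 ± 9.90 RPKM in WT, and Plau with 20.3 ± 15 RPKM in KO and 32.1 ± 26.5 RPKM in WT. The libraries of Tnf and Plau overlapped in range within each genotype. Il10 had 6.26 ± 1.23 RPKM in KO and 7.19 ± 1.59 RPKM in WT, and Vegfa had 4.67 ± 2.40 RPKM in KO and 6.57 ± 3.37 RPKM in WT, again with overlapping ranges. Il1b had 2.12 ± 1.19 RPKM in KO and 1.71 ± 1.02 RPKM in WT. Nos2 had 0.685 ± 0.412 RPKM in KO and 1.38 ± 0.506 RPKM in WT, and Ptgs2 had 0.340 ± 0.195 RPKM in KO and 0.697 ± 0.299 RPKM in WT. Neighbours among Vegfa, Il1b, Nos2 and Ptgs2 overlapped in range within each genotype, so the order from Vegfa downward is not firm.

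Tnf encodes tumour necrosis factor, an early cytokine of activated macrophages. It had 99.6, 58.4, 52.8 and 60.4 CPM in KO 1 to 4, against 95.2, 51.1, 71.2 and 68.2 CPM in WT 1 to 4. The groups overlapped, and number 1 was the highest library of each genotype. Within numbers the log2 ratio of KO to WT was 0.07, 0.19, -0.43 and -0.17. In edgeR it differed by -0.08 on the log2 scale, KO over WT (SE 0.26, adjusted p = 0.9999). With the replicate block it was -0.09, with a 95% interval of -0.32 to 0.14.

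Il1b encodes interleukin-1 beta, a cytokine released after cleavage of its precursor. It was low, at 2.93, 1.16, 3.48 and 5.45 CPM in KO 1 to 4 and 4.57, 0.934, 1.92 and 3.14 CPM in WT 1 to 4. Counts lay between 10 and 142 reads, so counting error was large. The log2 ratio was -0.64 within number 1, 0.31 within number 2, 0.86 within number 3 and 0.80 within number 4. Numbers 3 and 4 were higher in KO beyond counting error, with 95% intervals of 0.33 to 1.4 and 0.39 to 1.21. For numbers 1 and 2 the intervals held 0. Over all libraries edgeR estimated 0.30 on the log2 scale (SE 0.55, adjusted p = 0.9999). With the block and without number 1 it was 0.74, and 0.20 without number 4.

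Il10 encodes an anti-inflammatory cytokine. It had 10.3, 8.06, 7.78 and 11.4 CPM in KO 1 to 4 and 13.4, 7.84, 10.8 and 10.9 CPM in WT 1 to 4. The genotypes overlapped, and 2 of 4 numbers were lower in KO. The log2 estimate of edgeR was -0.20 (SE 0.22, adjusted p = 0.9999). Tgfb1 encodes transforming growth factor beta 1, a regulatory cytokine. It had 494, 459, 410 and 406 CPM in KO 1 to 4 and 461, 447, 294 and 386 CPM in WT 1 to 4. It was higher in KO within all 4 numbers, by a log2 ratio of 0.10, 0.04, 0.48 and 0.07, and the ratio of number 3 rests on the low WT 3 library. The edgeR estimate was 0.16 (log2, SE 0.18, adjusted p = 0.9999), and 0.17 with the block (95% interval -0.02 to 0.37).

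Vegfa encodes vascular endothelial growth factor A, which macrophages make in hypoxia. It had 24.5, 94.6, 57.2 and 47.7 CPM in KO 1 to 4 and 31.8, 134, 72.9 and 77.5 CPM in WT 1 to 4. The library number moved Vegfa more than the genotype did, with number 1 lowest and number 2 highest in each genotype. Within numbers the log2 ratio was -0.38, -0.50, -0.35 and -0.70, and each counting interval lay below 0. Without the block edgeR gave -0.49 on the log2 scale (SE 0.47, adjusted p = 0.9999). With the block the estimate was again -0.49 and its SE 0.09, with an unadjusted p of 0.000164 and an edgeR adjusted p of 0.0852.

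Nos2 encodes inducible nitric oxide synthase, which makes nitric oxide from arginine. It had 5.48, 1.26, 1.94 and 4.26 CPM in KO 1 to 4 and 9.75, 6.26, 3.96 and 6.08 CPM in WT 1 to 4. Each KO library was below the WT library of its number, although KO 1 and KO 4 exceeded WT 3. The log2 ratio was -0.83, -2.31, -1.03 and -0.51 within numbers 1 to 4. Number 2 stood apart, with 24 reads in KO and 67 in WT. Over all libraries the edgeR estimate was -1.03 (log2, SE 0.48, adjusted p = 0.9999), and -1.07 with the block (SE 0.25, adjusted p = 0.192). Leaving out 1 number at a time, the blocked value ran from -1.33 to -0.77.

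Ptgs2 encodes cyclooxygenase 2, the inducible enzyme of prostaglandin synthesis. It had 2.04, 0.421, 1.46 and 2.53 CPM in KO 1 to 4 and 4.91, 1.49, 3.29 and 3.50 CPM in WT 1 to 4. Library number 2 was lowest in each genotype, from 8 reads in KO and 16 in WT. The log2 ratio within numbers was -1.27, -1.83, -1.17 and -0.47, and the counting interval of number 4 reached 0.01. In edgeR this came to -1.04 (log2, SE 0.53, adjusted p = 0.9999), and to -1.03 with the block (SE 0.24, adjusted p = 0.196).

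Plau encodes urokinase, a protease that activates plasminogen. It had 15.7, 26.6, 97.5 and 72.5 CPM in KO 1 to 4 and 24.8, 25.8, 130 and 155 CPM in WT 1 to 4. Numbers 3 and 4 were far above numbers 1 and 2 in both genotypes, a log2 difference of 2.24 with genotype in the fit. Among the 8 mRNAs the other such differences ran from -0.36 for Nos2 to 0.51 for Il1b. Within numbers the KO to WT log2 ratio of Plau was -0.66, 0.05, -0.42 and -1.09, so number 2 was not lower. The edgeR estimate was -0.66 (log2, SE 0.74, adjusted p = 0.9999), and -0.55 with the block (SE 0.15, adjusted p = 0.254). Without number 4 the blocked value was -0.34. Summed stromal markers also differed by number, at 4.59, 2.69, 73.5 and 88.4 CPM in KO 1 to 4 and 8.65, 4.57, 12.8 and 48.8 CPM in WT 1 to 4. All 9 stromal genes tested had a value above 0 in KO over WT, and their part in the Plau values was not tested.

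**Figure D2:**
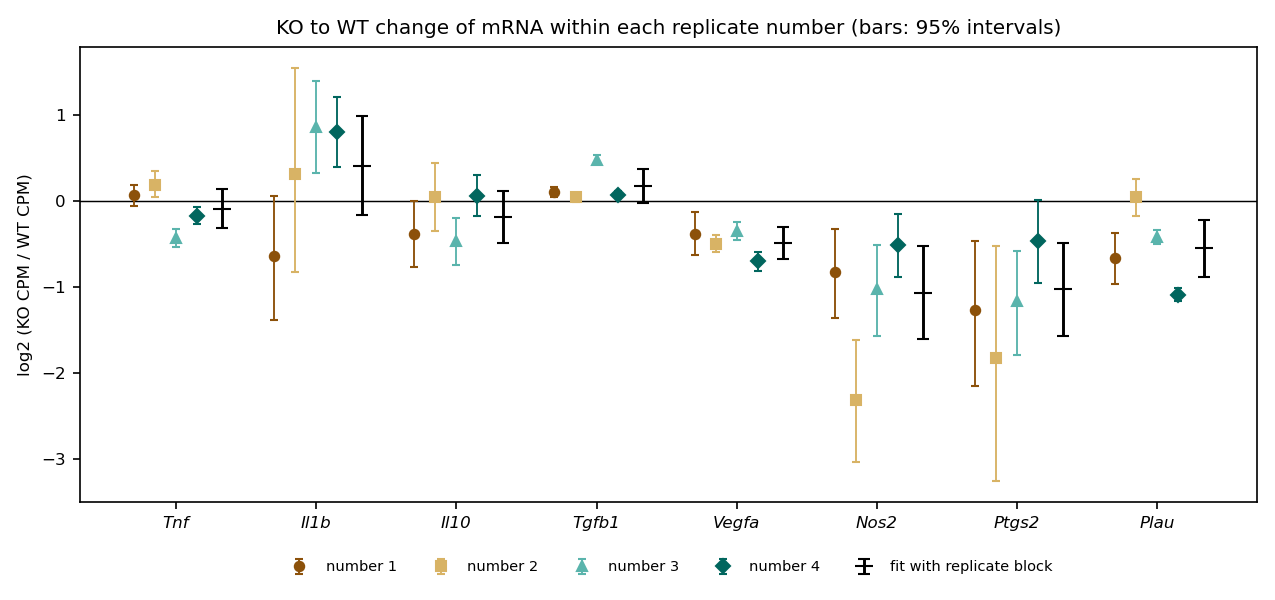
Log2 ratio of KO to WT CPM (y axis) for each gene within replicate numbers 1 to 4 (coloured points, bars are 95% counting intervals) and in the edgeR fit with the replicate block (black, 95% interval). Vegfa, Nos2 and Ptgs2 lie below 0 at all 4 numbers, and Nos2 at number 2 is the lowest point, at -2.31.

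Without the block edgeR called 0 of the 8 mRNAs and 0.00% of 14019 genes at an adjusted p under 0.05. At an unadjusted p under 0.05 it had 81 genes, 0.578%, and DESeq2 called 3 genes, 0.0214%, none of them among the 8. With the block edgeR called 0.0357% of genes in either direction and 0.0285% lower, again with none of the 8. At an unadjusted p under 0.05 in that fit, 4 of the 8 (Vegfa, Nos2, Ptgs2 and Plau) were lower and 0 higher. Of all genes, 4.52% were lower and 4.90% higher at that level. The 8 were chosen with earlier results of these data known, so these shares are a description. The median blocked log2 fold change was -0.34 over the 8 and 0.00 over all genes. DESeq2 with the block, an alternative, called Vegfa (DESeq2 adjusted p = 0.00266), Nos2 (DESeq2 adjusted p = 0.0209) and Plau (DESeq2 adjusted p = 0.0436) lower. It called 0.416% of genes lower, and gave no adjusted p for Ptgs2 and Il1b. No KO range lay wholly below or above the WT range for any of the 8, while 0.435% of genes had all KO libraries below all WT libraries and 0.35% had all above. The genotype effect was not shown to differ between numbers 3 and 4 and numbers 1 and 2 for any of the 8 (edgeR interaction, adjusted p = 0.9998 for each). That interaction called 0.00% of genes, with 0.949% at an unadjusted p under 0.05. The labels do not tie the numbers to animals, cultures or days, so the p-values describe how far these libraries vary, which may be technical in part.

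Across the 8 libraries the members moved in a few shared patterns, given here as Pearson correlations of log2 CPM with genotype and library number mixed. Nos2 and Ptgs2 correlated at 0.825, Il10 and Ptgs2 at 0.824 and Tnf and Il10 at 0.742. Vegfa ran against Tnf at -0.813 and against Il1b at -0.743, and Plau against Tgfb1 at -0.820. Centring within numbers 1 and 2 and within numbers 3 and 4 left the genotype difference in. The value of Nos2 with Ptgs2 was then 0.941 and that of Plau with Tgfb1 was -0.522. By the same measure over 8 libraries, the most alike gene of Plau was Txnrd3 at 0.998, then Mmp13, a collagenase, at 0.996 and Msr1, a scavenger receptor, at 0.987. For Nos2 they were Anxa2 at 0.936, Mcm3ap at 0.929 and Acod1, the enzyme that makes itaconate, at 0.923. Ptgs2 was most like Iqgap2 (0.967), St3gal1 (0.964) and Sfxn2 (0.959), and Vegfa most like Tbc1d10a (0.981), Mxi1 (0.980) and L3hypdh (0.980). Tnf was most like Prkcb (0.982), Cad (0.977) and Ung (0.974). Il10 was most like Gm13384 (0.991), Cd300ld (0.940) and Ppic (0.934). For Il1b they were Golga3, Gm15583 and Iffo2, all at 0.972, and for Tgfb1 Prkrip1 (0.984), Gm15696 (0.982) and Gm10434 (0.974). The libraries share genotypes, numbers and depths, so these values are a description.

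Cxcl2 and Mmp9 passed the threshold in the replicate-block fit of edgeR, among the lists of related genes described next. Of 42 other AU-rich or reported ELAVL1-bound mRNAs 37 were tested, and with the block 11 were lower and 5 higher at an unadjusted p under 0.05. Their median blocked log2 fold change was -0.12. Of all genes tested, 4.52% were lower and 4.90% higher at that unadjusted level. The lists, like the 8, were chosen with earlier results of these data known, so such shares are a description. Past an edgeR adjusted p of 0.05 with the block, Cxcl2, a neutrophil chemokine, fell by 1.41 on the log2 scale, to 2.84 ± 2.37 CPM in KO, against 7.84 ± 6.89 CPM in WT (adjusted p = 0.0213). In that fit Mmp9, a gelatinase, rose by 0.94, with 45.4 ± 49.0 CPM in KO and 23.5 ± 23.9 CPM in WT (edgeR adjusted p = 0.0152). Neither passed without the block. Of 22 receptors, inhibitors and processing enzymes of the members 18 were tested, 3 lower and 1 higher at that unadjusted level, with a median of -0.01. Among them Ass1, which supplies arginine, had 7.99 ± 1.51 CPM in KO and 10.9 ± 2.77 CPM in WT. Casp1, the protease that cleaves the Il1b product, had 30.5 ± 15.3 CPM in KO and 37.5 ± 18.6 CPM in WT. Kdr, a VEGF receptor, had 19.8 ± 18.9 CPM in KO and 12.7 ± 11.3 CPM in WT (SD, n = 4 each).

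Of 15 hypoxia target genes, a response that includes Vegfa, 12 had a blocked value below 0 and 4 had an unadjusted p under 0.05, all lower. Of all 14019 genes, 6990 had a blocked value below 0, and 4.52% were lower and 4.90% higher at that unadjusted level. The median of the list was -0.16, and this list too was chosen with earlier results known. Pdk1, a kinase that restrains pyruvate oxidation, had 37.5 ± 8.64 CPM in KO and 52.0 ± 13.3 CPM in WT, and P4ha2, a collagen hydroxylase, 11.0 ± 4.55 CPM in KO and 14.8 ± 5.39 CPM in WT. The 21 tested of 25 inflammatory response genes had 2 lower and 1 higher, with a median of 0.05. Acod1 had 60 ± 23.9 CPM in KO and 87.8 ± 11.9 CPM in WT, and Marco, a scavenger receptor, 370 ± 348 CPM in KO and 422 ± 316 CPM in WT. Among 11 AU-rich element binding proteins 0 were lower and 2 higher. Zfp36, which encodes tristetraprolin, had 194 ± 46.0 CPM in KO and 151 ± 28.7 CPM in WT, and Zfp36l2 had 460 ± 96.1 CPM in KO and 406 ± 134 CPM in WT. On the other side of 0, blocked log2 values were 0.18 for Ndrg1 and 0.12 for Car9 among hypoxia targets, 0.23 for Gadd45b and 0.37 for Socs3 among inflammatory genes, and -0.14 for Tial1 and -0.06 for Hnrnpd among the binding proteins. None of the genes in these last 4 lists passed the edgeR threshold (all genes tested, with or without the block).

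In AGO2 PAR-CLIP, RNA labelled with a photoreactive uridine analogue is crosslinked to AGO2 and sequenced, and T-to-C changes mark crosslinks. The deposited tables list binding groups, clusters of overlapping reads, of at least 5 reads each, so a gene without a group may still hold fewer reads. Groups held 6445262 reads in KO and 6287870 in WT, and values are given as reads per 1000000 group reads (RPM). With 1 library per genotype there is no replicate check, and intervals are exact binomial at 95% and cover counting error only. Reads in 3′ UTR groups were 23.4% of group reads in KO and 28% in WT. Over the 4684 genes with 3′ UTR groups in both tables the median KO to WT ratio was 0.762, and the members are read against that.

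AGO2 reads in the 3′ UTRs of the members came mostly from Plau and Vegfa, and Tnf had 10 such reads in KO against 150 in WT. Summed over the 8, they were 1546 in KO and 2465 in WT, a ratio of 0.612 (0.574 to 0.652). Plau held 1211 reads in 14 groups in KO and 1702 reads in 12 groups in WT, which is 78.3% and 69.0% of the members' 3′ UTR reads in KO and WT. Vegfa held 292 reads in 6 groups in KO and 541 reads in 6 groups in WT. The Tnf reads lay in 1 group in KO and 3 groups in WT. Il10 held 33 reads in 2 groups in KO and 20 reads in 2 groups in WT. Ptgs2 had no listed group in KO and 52 reads in 3 groups in WT. Nos2, Il1b and Tgfb1 had no 3′ UTR group in either table.

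The sequences below are, for each gene, up to 2 of the sites with most reads that hold the AU-rich pentamer ATTTA or a seed match, with the strongest Tnf and Vegfa groups, which were added after their values were seen. They are mRNA-sense, 5′ to 3′, written with T for U, on build mm9 as deposited. Their counting base, 0 or 1, could not be settled. Capitals mark the pentamer or the seed match, and the name gives the gene, position and strand.
Plau chr14:21662278-21662307 (+), seed match to miR-27: ccctaactccagACTGTGAtgcggggccat
Plau chr14:21662578-21662607 (+), seed match to miR-23a-3p: taaaggtgatcaataAATGTGAtttttctg
Vegfa chr17:46154115-46154140 (-), overlapping pentamers and seed match to miR-29a-3p: ttatcATTTATTTAtTGGTGCTActg
Vegfa chr17:46154647-46154672 (-), pentamer: ttttatatacggtacttATTTAatag
Vegfa chr17:46155529-46155558 (-), seed match to miR-16-5p: ttttcttatatcTGCTGCTAaatcgccaag
Il10 chr1:132920998-132921018 (+), pentamer, listed in KO: tcccattctATTTAttcactg
Il10 chr1:132920974-132920996 (+), pentamer and seed match to let-7, listed in WT: ATTTAttacctctgaTACCTCAg
Tnf chr17:35337021-35337046 (-), no capitals because neither was found, listed in WT: acccctttactctgacccctttattg

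The miRNAs whose seeds match these sites, with let-7c-5p standing for 7 let-7 miRNAs and miR-16-5p for miR-15a-5p as well, are shown with the seed in capitals, from RefSeq (GRCm38.p6). miR-27a-3p and miR-27b-3p share a seed, which differs from that of miR-23a-3p.
mmu-miR-27b-3p: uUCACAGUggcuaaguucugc
mmu-miR-27a-3p: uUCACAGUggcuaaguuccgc
mmu-miR-23a-3p: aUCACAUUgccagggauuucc
mmu-miR-29a-3p: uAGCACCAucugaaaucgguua
mmu-miR-16-5p: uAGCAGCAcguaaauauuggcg
mmu-let-7c-5p: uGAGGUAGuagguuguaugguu
In the small RNA libraries miR-27b-3p took 1.18% and 1.21% of miRNA counts in KO 3 and 4 and 1.18% and 1.21% in WT 1 and 2. For miR-29a-3p the shares were 0.733% and 0.525% in KO and 0.555% and 0.589% in WT, and for miR-23a-3p 0.420% and 0.751% in KO and 0.702% and 0.559% in WT. Genotype and number cannot be told apart in those 4 libraries, and no miRNA was tested here.

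The Tnf 3′ UTR had the lowest KO to WT ratio of the 4 members with groups in both tables, and it was singled out after its values were seen. Its 3′ UTR reads were 1.55 RPM in KO and 23.9 RPM in WT, a ratio of 0.0650 (95% counting interval 0.0306 to 0.123). Of the 4684 genes with groups in both tables, 0.0854% had a ratio at or under that of Tnf. Of the 2118 among them with at least 100 WT reads it was 0.189%, and 27.3% were lower by 2-fold or more. Genes listed in WT alone, 19.8% of the 6933 with a 3′ UTR group in either table, have no ratio and are left out. Tnf mRNA had 67.8 ± 21.4 CPM in KO and 71.4 ± 18.2 CPM in WT (SD, n = 4 each). The strongest WT group, at chr17:35337021-35337046 and the 5′-most of those listed, held 123 reads and 98 conversion events, and no KO group was listed there. The other WT groups held 16 and 11 reads. The single KO group, at chr17:35336837-35336861, held 10 reads and overlapped none of them. KO also had a Tnf group of 19 reads in coding sequence, where WT had none, so Tnf was listed in both tables with different groups.

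Vegfa had 45.3 RPM of 3′ UTR reads in KO and 86.0 RPM in WT, a ratio of 0.527 (0.455 to 0.608). The ratio was uneven along the 3′ UTR. The 5′-most site, which holds the miR-16 seed match, had 11.8 RPM in KO and 32.3 RPM in WT, a ratio of 0.365 (0.277 to 0.478). The site of overlapping pentamers beside the miR-29a match had 14.9 RPM in KO and 24.5 RPM in WT, a ratio of 0.608 (0.466 to 0.790). At the pentamer site of chr17:46154647-46154672, reads were 10.7 RPM in KO and 7.79 RPM in WT, and its interval of 0.939 to 2.02 includes 1. A site with neither motif, at chr17:46154794-46154839, had 2.79 RPM in KO and 10.5 RPM in WT, a ratio of 0.266 (0.149 to 0.454).

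Plau had 188 RPM of 3′ UTR reads in KO and 271 RPM in WT, a ratio of 0.694 (0.644 to 0.748), just under the median of all genes. Its reads gathered in the last part of the 3′ UTR. The region around the miR-27 match, chr14:21662227-21662310, held 72.3 RPM in KO and 111 RPM in WT, a ratio of 0.652 (0.579 to 0.734). A neighbouring region, chr14:21662312-21662400, held 43.3 RPM in KO and 68.2 RPM in WT, and the last site, with the miR-23a match, held 36.2 RPM in KO and 48.8 RPM in WT. Of 13 Plau sites 9 were listed in both tables, and the 5 with the most reads had ratios between 0.634 and 0.811. Coding sequence of Plau went the other way, with 33.5 RPM in KO and 21.3 RPM in WT, a ratio of 1.57 (1.26 to 1.97). Plau mRNA differed more between numbers 1 and 2 and numbers 3 and 4 than between genotypes, and the labels do not say which numbers gave the PAR-CLIP cells.

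**Figure D3:**
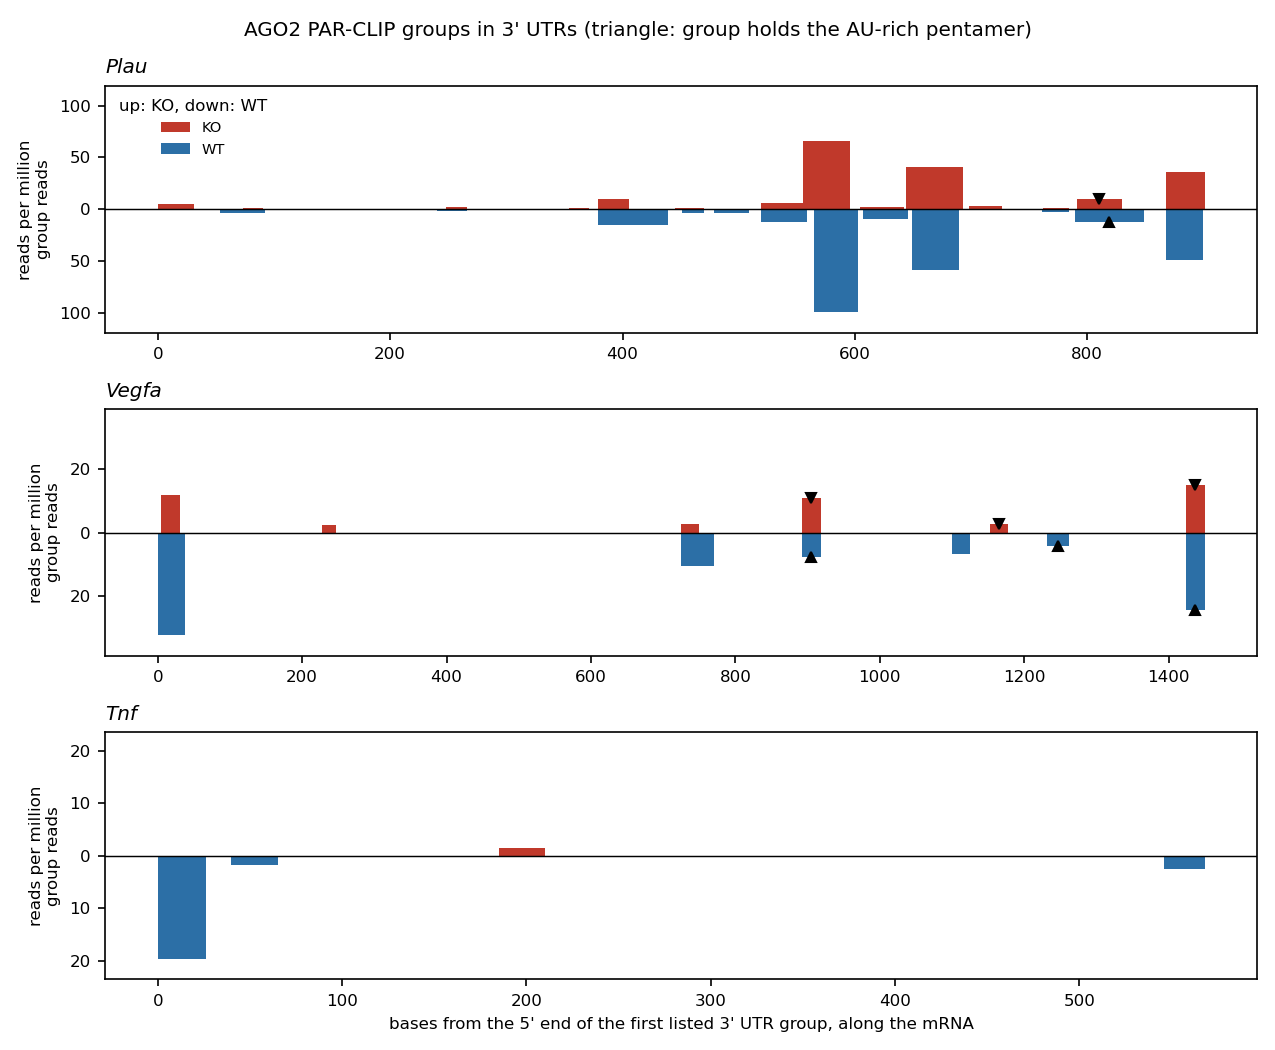
AGO2 signal in RPM (y axis) of each 3′ UTR group of Plau, Vegfa and Tnf, KO upward in red and WT downward in blue, against bases along the mRNA from the first listed group (x axis). Black triangles mark groups with the AU-rich pentamer. The strongest Tnf group, 19.6 RPM in WT, has no KO counterpart, whereas the main Plau sites appear in both.

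Il10 and Ptgs2 rested on few reads. Il10 had 5.12 RPM in KO and 3.18 RPM in WT, and the interval of its ratio, 0.897 to 2.96, includes 1. Its KO and WT groups did not overlap in position, although they lie side by side. The KO group at chr1:132920998-132921018 held 16 reads and no recorded conversion. Conversion events in the Il10 3′ UTR were 17 in KO and 20 in WT, so the higher KO reads were not matched by events. Ptgs2 was listed in WT alone, as were 19.8% of the 6933 genes with a 3′ UTR group in either table, while 12.6% were listed in KO alone. Its strongest WT group, chr1:151954670-151954698, held 25 reads. Among genes with groups in both genotypes, 24.7% were lower in KO by 2-fold or more and 10.1% higher, and of the 4 members so listed only Tnf passed that fold.

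**Figure D4:**
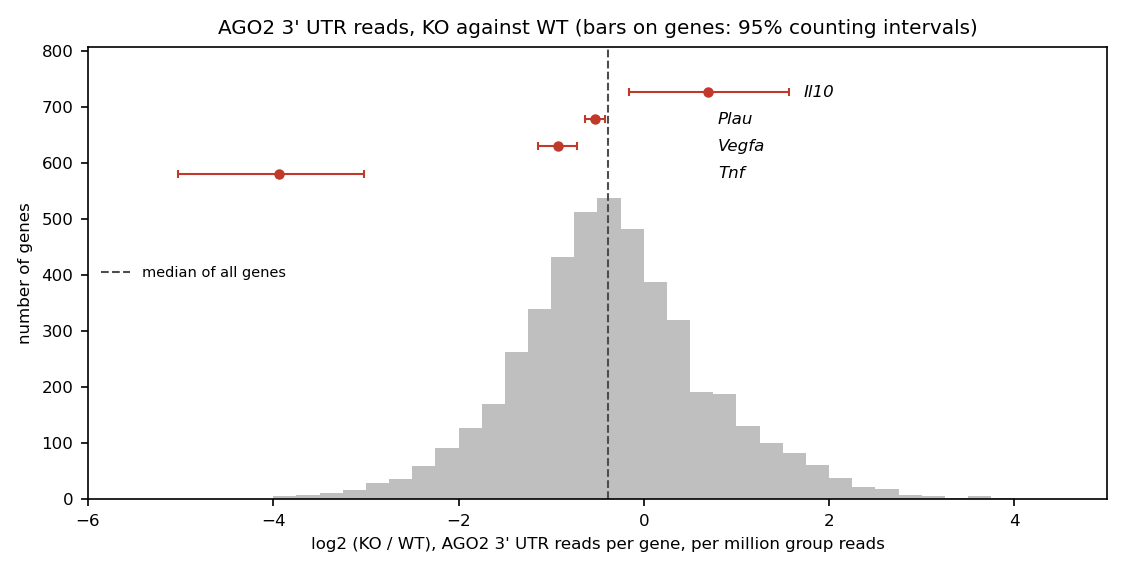
Number of genes (y axis) by log2 ratio of AGO2 3′ UTR reads, KO over WT, for 4684 genes with groups in both tables (grey). The 4 members so listed are red points with 95% counting intervals, drawn above the histogram at arbitrary heights. Tnf lies at -3.94, at the far left edge, Vegfa at -0.93, Plau at -0.53 and Il10 at 0.69, and the dashed median is -0.39.

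Nos2, Il1b and Tgfb1 lacked 3′ UTR groups at different mRNA levels. Of genes within 1.5-fold of the mean CPM of Nos2 28.9% had a 3′ UTR group in either table, and 21.4% of those near Il1b. Of 371 genes at the level of Tgfb1 75.5% had one. Tgfb1 groups lay elsewhere, with 17 coding reads in KO and 52 in WT, no 5′ UTR group in KO and 35 such reads in WT, and 15 intron reads in KO and none in WT. Nos2 had 1 intron group of 11 reads in KO and none in WT.

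The AU-rich pentamer was more frequent in the members' groups than in 3′ UTR groups at large, while their uridine content was not. It was found in 5 of 23 member groups in KO, 21.7%, against 6.33% of all 3′ UTR groups, and in 5 of 26 in WT, 19.2%, against 7.48%. Among all groups of the same lengths the shares were 7.15% in KO and 9.32% in WT. In KO and in WT alike, 3 of these 5 groups were of Vegfa, 1 of Plau and 1 of Il10, so the count comes from few genes and was not tested. The genes were chosen as mRNAs reported to carry AU-rich sequence, so an excess of the pentamer is partly built into the choice. The Vegfa sites at chr17:46154115-46154140 and chr17:46154647-46154672 and a Plau site hold it in both tables. The KO and WT counts are therefore not independent. Pentamer groups held 62.7% of the Vegfa 3′ UTR reads in KO and 42.3% in WT. For Plau they held 5.28% in KO and 4.52% in WT. The listed groups of Tnf and Ptgs2 hold none, which says only that those letters are not in these windows.

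Median uridine content of member groups was 34.2% in KO and 35.1% in WT, beside 34.8% and 35.0% of all 3′ UTR groups in KO and WT. Member groups ranged from 20.0% to 69.0% in KO and from 20.0% to 53.8% in WT. The highest was a Plau group of 20 reads listed in KO alone, which ends in a run of 13 uridines. Runs of at least 5 uridines (TTTTT) were in 3 member groups in KO, 13.0%, and 4 in WT, 15.4%, beside 9.83% and 11.0% of all groups in KO and WT and 11.6% and 13.8% of those of the same lengths. Vegfa groups had the highest medians, 43.9% in KO and 39.7% in WT.

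**Figure D5:**
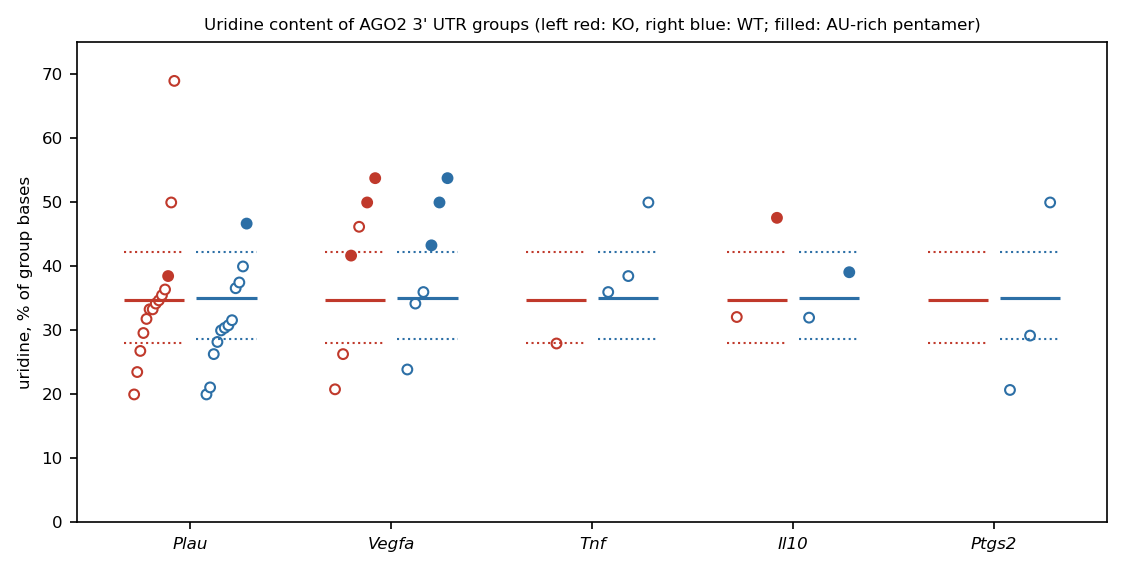
Uridine content (y axis, percent of bases) of each AGO2 3′ UTR group of the 5 genes that have any, KO in red at the left and WT in blue at the right of each pair. Filled points hold the AU-rich pentamer, solid lines are the median and dotted lines the quartiles of all 3′ UTR groups in that table. The member medians, 34.2% in KO and 35.1% in WT, are near the solid lines at 34.8% and 35.0%, and all filled points sit above them.

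Seed matches to the 30 most abundant miRNAs were not more frequent in the members. They were found in 3 of 23 KO groups and 4 of 26 WT groups, 13.0% and 15.4%, beside 18.6% and 18.3% of all 3′ UTR groups and 21.7% of groups of the same lengths in each table. As 8mers alone they were in 1 group in each table, beside 5.18% of all groups in KO and 5.04% in WT. With 15 miRNAs they were in 1 KO group and 2 WT groups, beside 10.1% and 9.99% of all groups in KO and WT. With 60 miRNAs they were in 5 KO groups and 6 WT groups, beside 27.8% and 27.6% of all groups in KO and WT. The groups matched by the 30 miRNAs held 660 of 1211 Plau reads in KO and 930 of 1702 in WT, through miR-27 and miR-23a. The miR-16 match in Vegfa came from miRNAs of ranks 31 to 60, where miR-16-5p is 35th by share and miR-181a-5p, which matches a Plau group of 17 reads in KO and 61 in WT, is 34th. By position, 65.2% of member groups in KO overlapped a WT group and 57.7% in WT overlapped a KO group, beside 52.1% and 40.7% of all 3′ UTR groups in KO and WT. At least 1 T-to-C conversion was recorded in 18 of 23 member groups in KO, 78.3%, beside 81.6% of all, and in 24 of 26 in WT, 92.3%, beside 86.9% of all.

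Set beside mRNA level, AGO2 3′ UTR reads per 1000 CPM were 3550 RPM in KO and 3230 RPM in WT for Plau, close to each other. For Vegfa they were 809 RPM in KO and 1090 RPM in WT. For Tnf they were 22.9 RPM in KO and 335 RPM in WT. Il10 went the other way, with 545 RPM in KO and 294 RPM in WT, from 33 reads in KO and 20 in WT. Of those KO reads, 16 lay in a group without a recorded conversion. Ptgs2 had no listed group in KO and 2510 RPM in WT, from 52 reads. These quotients set 1 AGO2 library against the mean of 4 mRNA libraries of each genotype and carry no error. They are not scaled for the median KO to WT ratio of AGO2 reads over all genes, 0.762. Reads are counted here whether converted or not. Conversion events per 100 reads were 64.6 in KO and 83.8 in WT for Plau, and 51.5 in KO and 100 in WT for Il10. For Vegfa they were 87.7 in KO and 84.5 in WT, and for Tnf 100 in KO and 83.3 in WT.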

How the data were processed

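The members and gene lists were chosen with earlier results of these data known. Per the file headers, the authors deposited a read count and an RPKM value per Ensembl gene, a count per mature miRNA, and a read count per AGO2 group. Per the submitters' processing notes, CASAVA 1.8.2, Bowtie 0.12.7 and build mm9 were used. How genes were counted, with or without strand, and how groups were called is not stated there. Symbols came from an identifier table that matched 19328 of 21444 genes.

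KO was compared with WT by edgeR 4.0.16 quasi-likelihood tests in R 4.3.3 (TMM scaling, filterByExpr, genotype alone, Benjamini-Hochberg adjusted p under 0.05 over 14019 genes), with SE as the log2 fold change over the root of F. Alternatives were the replicate number as a block, DESeq2 1.42.0, limma 3.58.1 on log2(RPKM + 1), other scalings, no filter, and libraries left out. The pipeline was tested on simulated data. CPM are TMM scaled. Deviations of equal-numbered KO and WT libraries from their group means correlated at 0.770, 0.810, 0.745 and 0.801, all over the minimum of 0.1 for pairing. Unlike numbers also passed it, at 0.344 for KO 1 with WT 2 and 0.241 for KO 2 with WT 1. The values were 0.832 for KO 3 with WT 4 and 0.764 for KO 4 with WT 3. That minimum therefore cannot tell pairing by number from the split of numbers 1 and 2 against 3 and 4. AGO2 values were compared in Python 3.11.15 with no test. Motifs (ATTTA and TTTTT) were sought on the mRNA strand alone. Seeds came from the 27 of the 30 most abundant miRNAs found in RefSeq (7mers to bases 2 to 8, or 2 to 7 followed by A). Not matched were miR-378a-3p, miR-30d-5p and miR-142-3p. Named genes were the members, the 3 most correlated genes of each, and from each list those past the threshold or else up to 2 of smallest blocked p per direction. A gene that this rule names is not reported here. One column header in the small RNA table of KO 4 reads KO 2, and the label was followed.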

Additional observations from a re-analysis of the deposited data

Results flagged for a closer look

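Tnf at 99.6 CPM in KO 1 lay far above the other KO mRNA libraries (58.4, 52.8 and 60.4 CPM), a gap of 0.837 of the group's range. Chance flags about 1 in 20 such groups, and the KO and WT libraries of each of the 8 mRNAs were looked at. WT 1 was also the highest WT library, at 95.2 CPM. Without KO 1 the edgeR log2 fold change of Tnf was -0.32.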

How the results depend on the processing

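The replicate block, an alternative to the main fit, gave 1 gene called higher and 4 lower and changed no call among the 8 mRNAs in edgeR. Without the block the counts were 0 and 0. Other counts of genes called, higher and lower, were 0 and 3 with DESeq2, 35 and 47 with DESeq2 and the replicate block, 0 and 1 with the number sets as a block, and 8 and 6 with numbers 3 and 4 alone. Leaving out 1 number in the blocked fit gave 0 to 17 higher and 3 to 12 lower, with the most of each without number 2. DESeq2 with the block called 3 of the 8, and no other setting called any. With numbers 1 and 2 alone, Tnf turned to 0.10 and Il1b to -0.52. Leaving out 1 library, Tnf ran from -0.32 to 0.09 and Il1b from -0.08 to 0.68, and in the blocked fit Tnf was 0.02 without number 3. The cause was not tested. The other 6 mRNAs kept their direction in all settings run, but their size depended on single libraries. Vegfa ran from -0.87 without KO 2 to -0.12 without WT 2, Plau from -1.14 without KO 3 to -0.19 without WT 4, and Nos2 from -1.38 without KO 1 to -0.76 without KO 2. Ptgs2 ran from -1.39 without KO 4 to -0.72 without KO 2, Il10 from -0.32 without WT 2 to -0.08 without WT 1, and Tgfb1 from 0.04 without WT 3 to 0.24 without WT 1. In the blocked fit, leaving out 1 number, Vegfa ran from -0.54 to -0.42, Ptgs2 from -1.34 to -0.92, Il10 from -0.29 to -0.08 and Tgfb1 from 0.07 to 0.22.

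The AGO2 ratio over the 8 mRNAs was 0.733 per 3′ UTR group reads, 0.570 with groups of at least 20 reads and 0.428 without Plau. In alternatives chosen after seeing the data it was 0.724 with converted groups per 3′ UTR reads. Also chosen so, per 3′ UTR reads Il10 was 1.93 (1.07 to 3.55) and Plau 0.831. The Il10 value includes 16 KO reads in a group without a recorded conversion. Member groups with a seed match were 1 with 15 miRNAs, 5 with 60 and 1 as 8mers in KO, and 2 with 15 miRNAs and 1 as 8mers in WT. Depth limits Nos2, Ptgs2 and Il1b, at 8 to 151 reads a library, and AGO2 genes with few groups.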
